A study of Mus musculus with 375 samples.

Results

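The histone genes described here are the 68 genes of the expression table whose symbols begin with Hist1h, Hist2h, Hist3h or Hist4h, of 23420 genes in all. They comprise 6 genes for the linker histone H1, 18 for H2A, 19 for H2B, 12 for H3 and 13 for H4. Their symbols place 54 in the Hist1 cluster, 10 in Hist2, 3 in Hist3 and 1 in Hist4. In GENCODE M21 on GRCm38 (mm10), the Hist1 genes span chr13:21715763-23934851, the Hist2 genes chr3:96219865-96270132, the Hist3 genes chr11:58948920-58956830, and Hist4h4 lies at chr6:136801553-136804415. They were measured in single Lgr5-positive cells sorted by flow cytometry from mouse small intestine, where Lgr5 marks the crypt base stem cells. The 2 groups of mice differed in diet, control or high in fat (HFD). The labels give no strain, allele, sex, age or time on diet. The titles divide the cells into 4 sets, numbered 1 and 2 for each diet. Of 375 cells, 367 had at least 2000 genes above 0 and were used: 93 and 91 in control sets 1 and 2, 91 and 92 in HFD sets 1 and 2. A set was the replicate. Whether sets were separate mice is not stated, so p-values between diets measure only the spread between sets, which may be technical. Those between classes of cells within sets measure only how far the class differences vary from set to set, which may be technical too.

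Histones package DNA: pairs of H2A, H2B, H3 and H4 form the core of the nucleosome, and H1 binds the linker DNA between cores. A cell that copies its genome needs new histones, and most genes of these clusters are replication-dependent, transcribed for use in S phase. Their mRNAs are unusual among those of animals in that most end in a conserved stem-loop instead of a poly(A) tail. SLBP, the stem-loop binding protein, holds that end during processing and translation. Smart-seq2 primes cDNA on poly(A), so it is not designed to capture RNAs that end at the stem-loop, and the values below describe the histone RNA that was nevertheless primed and sequenced. In the crypt, Lgr5-positive cells are known to divide often.

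The stem-loop is shown first because it is the end that oligo-dT priming would miss. A 16-base palindromic element, 6 bases of stem, 4 of loop and 6 of stem, was found within 150 bases of the stop codon in 46 of the 67 members with a coding transcript model (68.7%). It was found in 9 of 21775 other protein-coding genes (0.0413%). There were 8 distinct sequences. The 3 most frequent and that of Hist1h4i follow, 5′ to 3′ on the coding strand in GENCODE M21 transcripts on GRCm38, with the loop in capitals.
Hist1h2ao (chr13:21810898-21810913, +) and 25 other members: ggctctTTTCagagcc
Hist1h4d (chr13:23581950-23581965, +) and 6 other H4 members: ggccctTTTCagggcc
Hist1h2bb (chr13:23747203-23747218, +) and 5 other members: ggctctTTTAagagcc
Hist1h4i (chr13:22040966-22040981, −) and Hist2h4: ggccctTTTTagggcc
The stem that begins ggccct was carried by 10 members, all of them H4 genes, while the stem that begins ggctct was carried by genes of the other 4 types and by no H4 gene. Of the 46 members with the element, 26 had an annotated transcript that ran at least 50 bases past it, and 20 had a model that ended sooner. A further 17 members had models that stopped within 60 bases of the stop codon with no element in them. The remaining coding members were 4 H2B genes with longer models and no element within 150 bases, Hist1h2bc, Hist1h2bq, Hist1h2br and Hist2h2be.

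The 150 bases before the transcript start are shown for the leading member of the H2A, H3, H4 and H1 classes and for Hist1h2ac, which is transcribed away from the leading H2B gene, Hist1h2bc, with 251 bases between them. They come from RefSeq on GRCm38.p6, in which 62 of the 68 members were matched, and run 5′ to 3′ on the strand of the gene. Capitals mark 3 motifs searched on both strands: the CCAAT box, the TATA box spelled TATAAA, and the octamer, which reads ATTTGCAT. None of these contains another, and a CCAAT box on the opposite strand shows as ATTGG.
Hist1h2ao (chr13:21810217-21810366, +): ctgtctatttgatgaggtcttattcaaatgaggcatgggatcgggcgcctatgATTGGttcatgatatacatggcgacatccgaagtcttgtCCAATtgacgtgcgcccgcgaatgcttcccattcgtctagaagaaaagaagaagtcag
Hist2h3b (chr3:96268504-96268653, +): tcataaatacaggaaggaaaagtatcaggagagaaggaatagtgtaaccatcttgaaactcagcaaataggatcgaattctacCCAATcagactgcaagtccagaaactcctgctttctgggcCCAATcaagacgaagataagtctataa
Hist1h4d (chr13:23581418-23581567, +): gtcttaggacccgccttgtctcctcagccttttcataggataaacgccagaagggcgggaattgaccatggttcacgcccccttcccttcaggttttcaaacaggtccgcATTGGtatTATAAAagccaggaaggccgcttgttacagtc
Hist1h1e (chr13:23622559-23622708, −): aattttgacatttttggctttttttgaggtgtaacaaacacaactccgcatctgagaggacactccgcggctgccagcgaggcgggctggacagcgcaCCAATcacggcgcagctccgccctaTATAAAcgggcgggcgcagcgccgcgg
Hist1h2ac (chr13:23683960-23684109, −): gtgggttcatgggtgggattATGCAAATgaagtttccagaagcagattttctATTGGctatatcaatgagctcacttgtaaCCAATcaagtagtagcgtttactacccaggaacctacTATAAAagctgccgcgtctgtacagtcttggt
CCAAT was present in 51 of the 62 member promoters (82.3%) and in 27.7% of 27025 promoters of the same length. It stood in 18 of 18 H2A, 16 of 16 H2B and 6 of 6 H1 promoters, in 8 of 10 for H3 and in 3 of 12 for H4. TATAAA was in 24 of the 62 (38.7%, against 8.89% of all). The octamer was in 11 (17.7%, against 1.17%), 5 for H2A and 6 for H2B, and in no matched H1, H3 or H4 promoter. A match describes these letters and is not evidence of a bound factor.

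Histone RNA was detected in every cell used. At a detection level of 1 TPM (a transcript abundance scaled for transcript length and for the total of each cell), a cell held a mean of 12.1 members, a median of 8 and a range of 1 to 46. The members summed to 1036 TPM over all cells, 0.104% of the total. Of the 68 members, 67 were above 0 in at least 1 cell. Hist1h1t, the testis H1, was at 0 in all 367 cells, which allows a share of up to 0.817% of cells with a value above 0, for counting error alone. A member was present in at least 5% of cells in 56 cases, in at least 25% in 16, and in at least 50% in 3. Those 3 were Hist1h1e in 79.3% of cells (95% Clopper-Pearson interval 74.8 to 83.3), Hist4h4 in 61.6% (56.4 to 66.6) and Hist1h2bc in 59.9% (54.7 to 65.0). These intervals cover counting error only, and because the files hold TPM without counts, the read depth behind each value is unknown.

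Few members carried most of the signal. The 5 highest made up 66.4% of the summed level and the 12 highest 80.1%. Mean levels reached at least 1 TPM for 57 members, at least 10 TPM for 18 and at least 100 TPM for 2. The H2A gene Hist1h2ao averaged 197 TPM in control 1, 368 in control 2, 425 in HFD 1 and 462 in HFD 2 (363 ± 117, SD of 4 sets). The H2B gene Hist1h2bc averaged 104, 116, 171 and 135 TPM in the same order (131 ± 29.5). Control 1 was the lowest set for both genes. The H3 gene Hist2h3b averaged 132, 83.2, 89.8 and 72.1 TPM (94.4 ± 26.4), and the H1 gene Hist1h1e 91.3, 47.3, 52.9 and 25.1 TPM (54.2 ± 27.5). For both of these control 1 was highest and HFD 2 lowest. The leading H4 gene, Hist1h4d, differed little between sets, at 24.9, 25.4, 21 and 24.4 TPM (SD 2.01). The other members of the top 12 were Hist1h2ap (45.5 TPM), Hist2h3c2 (39.2), Hist1h2ab (16.4), Hist1h4i (15.8), Hist1h3b (15.5), Hist1h1c (15.5) and Hist1h1b (15.2).

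**Figure D1:**
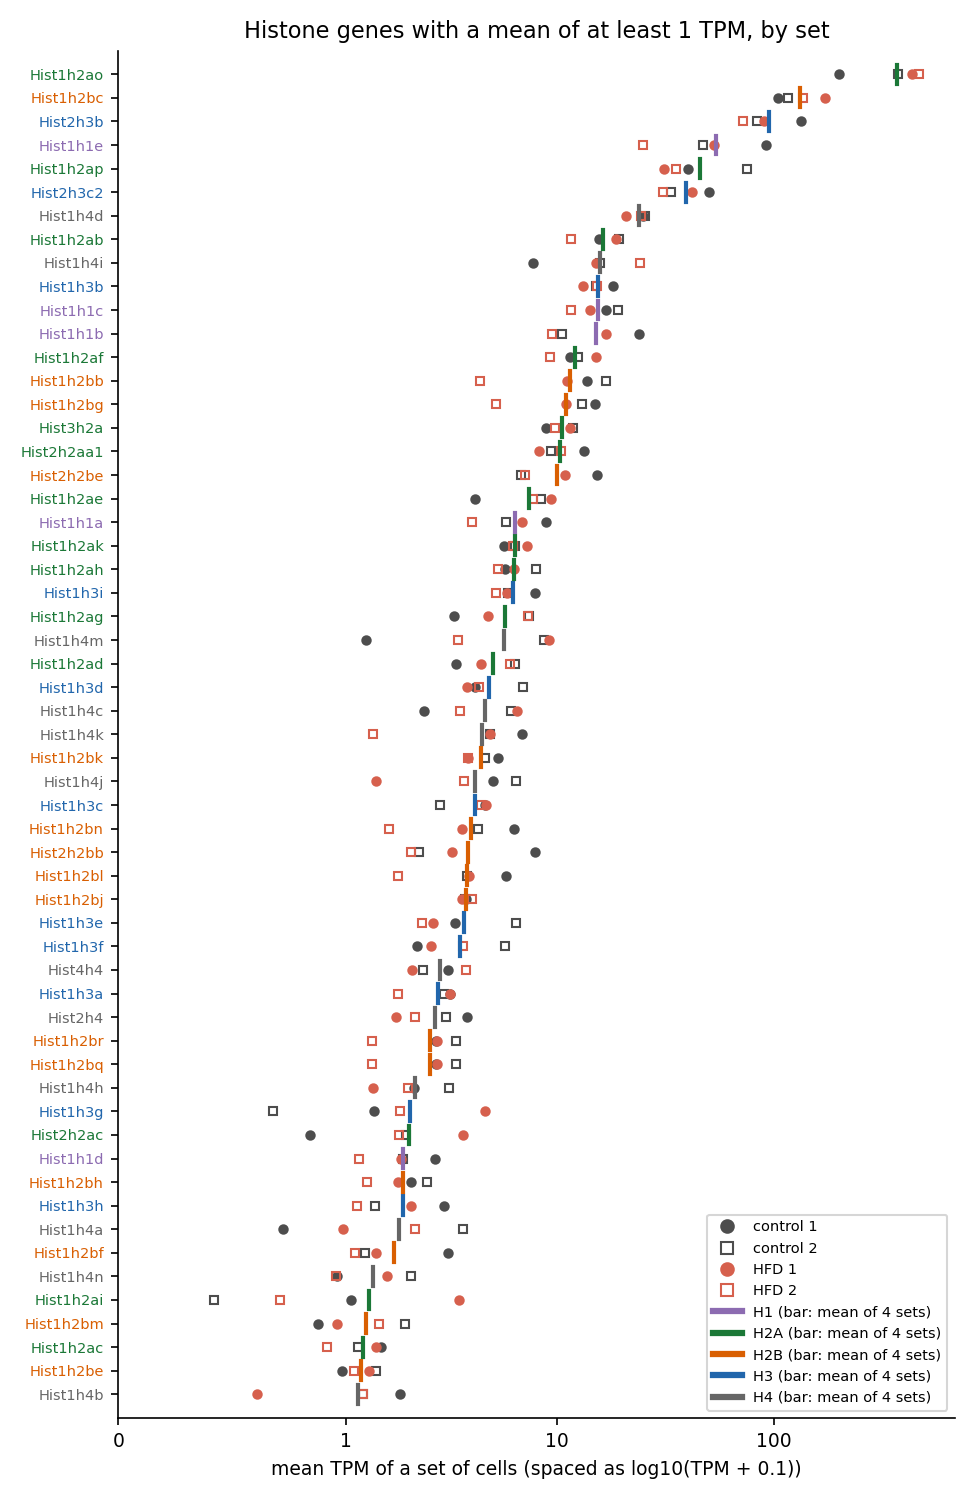
Mean level (TPM, log axis) of the 57 members with a mean of at least 1 TPM, each as 4 points, the means over the cells of control 1, control 2, HFD 1 and HFD 2, ordered by level. Levels run from Hist1h2ao at 363 TPM down to about 1 TPM, and the control and HFD points of most genes intermix.

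Several members cannot be told apart from their copies. Hist1h2bq and Hist1h2br held the same value in every cell, above 0 in 90 cells. Hist1h2ao and Hist1h2ap have identical coding sequences, as do Hist2h3c1 and Hist2h3c2, Hist1h4m and Hist1h4n, and Hist2h2aa1 and Hist2h2aa2. The coding sequences of Hist2h3b and Hist2h3c2 are 99.76% identical. For these genes the division of reads between copies by the authors' quantification is uncertain. TPM is scaled for length, so where copies differ in length their sum depends on that division too. Hist1h1e and Hist1h2be overlap by 496 bases on the same strand. Levels also differed within divergent gene pairs. In 13 pairs of members that face away from each other within 500 bases, 12 of them pairs of coding H2A and H2B genes, 173 to 306 bases lay between the starts. Across one such gap Hist1h2ac averaged 1.21 TPM and Hist1h2bc 131 TPM, a 108-fold difference, and across another Hist1h2bq averaged 2.56 TPM and Hist1h2ao 363 TPM. These were the largest ratios of the 13 pairs, and the smallest was 1.43-fold, between Hist1h2ah and Hist1h2bk.

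Cells were placed by 39 S phase and 51 G2/M marker genes that include no histone gene. A cell was called low where both standardised scores were at or below their mean over cells, and otherwise S-leaning or G2/M-leaning by the higher score. The low, S-leaning and G2/M-leaning cells numbered 43, 25 and 25 in control 1, 41, 23 and 27 in control 2, 27, 39 and 25 in HFD 1, and 34, 39 and 19 in HFD 2. The classes are ranges of a score, and 43 of the 367 cells lay within 0.1 SD of the cut. The median number of genes per cell was 5870 in low, 6859.5 in S-leaning and 7206 in G2/M-leaning cells. Pcna, an S marker of the rule, averaged 52.7 to 121 TPM in low, 367 to 613 in S-leaning and 95.4 to 159 in G2/M-leaning cells. Mki67, a G2/M marker of the rule, averaged 4.52 to 11.3, 18.0 to 34.9 and 84.6 to 114 TPM. Stem cell markers were present in all 4 sets, with Lgr5 in 94.8% of cells and the 5 stem markers summing to between 7633 and 12474 TPM per set. In control 1, control 2, HFD 1 and HFD 2, 5 Paneth markers summed to 63.4, 25.9, 3055 and 374 TPM. There 5 goblet markers summed to 490, 68.8, 619 and 528 TPM.

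Histone RNA was highest in the G2/M-leaning cells. The summed level per cell was 234, 328, 544 and 383 TPM in the low cells of control 1, control 2, HFD 1 and HFD 2. It was 549, 469, 835 and 740 TPM in the S-leaning cells and 2548, 2678, 2198 and 2742 TPM in the G2/M-leaning cells. Every G2/M-leaning mean lay above every S-leaning and every low mean, and within each set the S-leaning mean lay above the low mean. The mean log2 difference from the low cells was 2.83 ± 0.60 (SD of 4 sets, 7.12-fold) for G2/M-leaning and 0.83 ± 0.33 (1.78-fold) for S-leaning cells. Without Hist1h2ao and Hist1h2ap the latter was −0.04. Members of that remainder moved in both directions. From low to S-leaning cells Hist1h2bc fell from 212 to 38.2 TPM, while the H3 sum rose from 12.9 to 110 TPM. The number of members per cell was 6.26 in low, 9.56 in S-leaning and 24.4 in G2/M-leaning cells. A sum of at least 1000 TPM was reached by 11 of 145 low cells (7.59%), 26 of 126 S-leaning cells (20.6%) and 77 of 96 G2/M-leaning cells (80.2%). The median S-leaning cell, at 148 TPM, was below the median low cell, at 191.6 TPM, while the median G2/M-leaning cell held 2333 TPM.

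**Figure D2:**
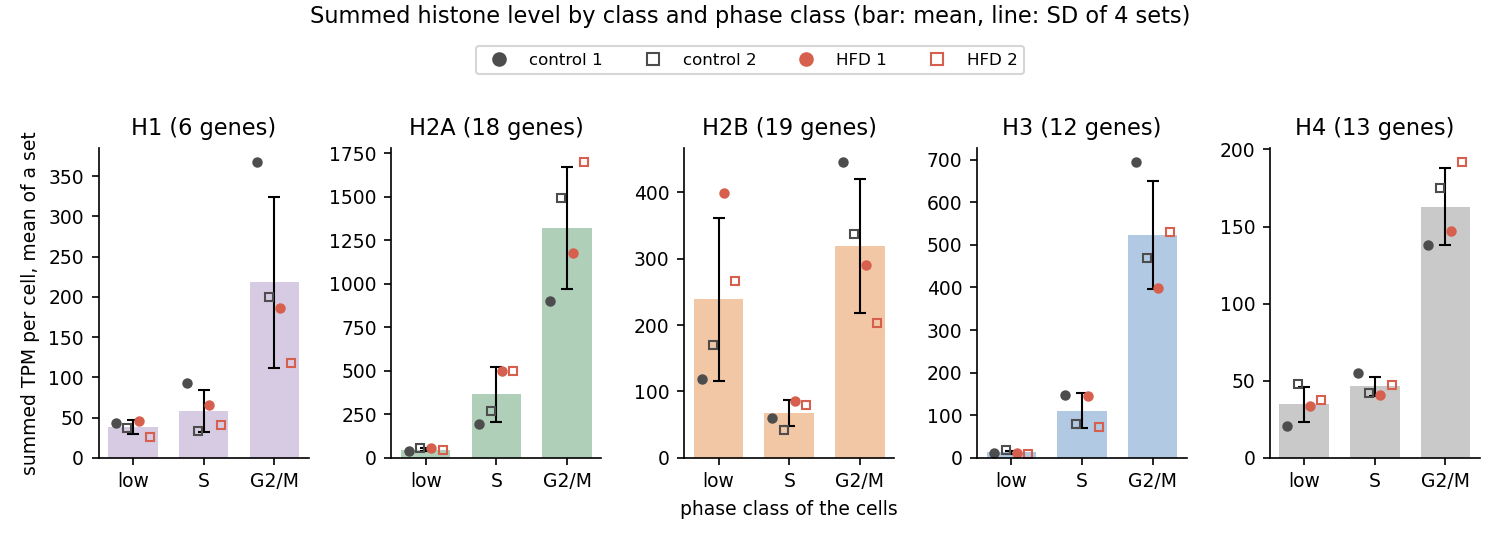
Summed level (TPM) of the H1, H2A, H2B, H3 and H4 members in low, S-leaning and G2/M-leaning cells. Bars are means of 4 sets, error bars their SD and points the sets. H2A and H3 are highest in G2/M-leaning cells and lowest in low cells, whereas H2B is lowest in S-leaning cells.

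H2A and H3 had the largest summed differences between the classes, and H2B had another order than the other 4 types. H2A members summed to 47.8 ± 8.13 TPM in low, 366 ± 157 in S-leaning and 1319 ± 350 in G2/M-leaning cells (SD of 4 sets), a mean of 27.1-fold between the last and the first. Hist1h2ao and Hist1h2ap together made up 31.5% of the H2A level in low cells and 84.7% in G2/M-leaning cells. H3 members summed to 12.9 ± 4.08, 110 ± 40.7 and 523 ± 126 TPM, 41.2-fold between the same classes. H1 members summed to 38.3 ± 8.87, 58.2 ± 26.7 and 218 ± 106 TPM, and H4 members to 34.8 ± 11.3, 46.3 ± 6.45 and 163 ± 24.9 TPM. H2B members summed to 239 ± 123 TPM in low, 67.3 ± 19.8 in S-leaning and 319 ± 101 in G2/M-leaning cells. In S-leaning cells the H2B sum was below that of low cells in all 4 sets, by a mean of 3.32-fold. In G2/M-leaning cells it was above the low value in both control sets (log2 1.90 and 0.99) and below it in both HFD sets (−0.46 and −0.39). A single gene, Hist1h2bc, made up 88.9% of the H2B level in low cells, and the other H2B members summed to 26.4, 29.1 and 168 TPM in the 3 classes. H2B made up 64.1% of all histone RNA in low cells and 12.5% in G2/M-leaning cells, where H2A made up 51.9% and H3 20.6%.

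Gene by gene, 58 of the 68 members passed the filter of a mean of at least 1 TPM over the 12 means of set and class. Of these, 31 reached 1 TPM in the low cells themselves, and 27 passed through the other classes. Between G2/M-leaning and low cells, 17 of the 31 rose and none fell by limma (adjusted p under 0.05), against 7.05% of the 11269 genes with at least 1 TPM in low cells that rose and 3.29% that fell. Their median log2 difference was 1.52, against 0.01 for those genes. The 17 were 1 of 2 tested for H1, 4 of 8 for H2A, 4 of 6 for H2B, 4 of 6 for H3 and 4 of 9 for H4. Hist1h2bq and Hist1h2br, whose values are identical, count separately among the H2B genes and in all totals. Of the other 27, 21 rose, and so did 28.5% of the 411 genes that passed in the same way, so their count is no independent support. In all, 38 of the 58 rose and none fell, against 7.81% of 11680 genes tested that rose and 3.18% that fell. Of the 38, 15 kept the call under all 17 alternative settings and 25 kept it with each set left out in turn. Both counts include members under 1 TPM in low cells, and they were not split by that level or set beside all genes. With only the 183 cells in the interquartile range of gene number, 5904 to 7139 genes, 17 members were called. That range left 4 G2/M-leaning cells in HFD 1.

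Between S-leaning and low cells, 5 of the 31 members with at least 1 TPM in low cells rose and 2 fell, against 4.97% of such genes that rose and 1.06% that fell. Over all 58, which include those that passed through the other classes, 14 rose and 2 fell, against 5.53% and 1.03% of all genes. Of the 27 that passed through the other classes 9 rose, and so did 20.9% of the 411 genes that passed in the same way. The count of these 9 is therefore no independent support. The members that rose were Hist1h1a and Hist1h1b for H1, Hist1h2ab, Hist1h2af, Hist1h2ak, Hist1h2ao and Hist1h2ap for H2A, Hist1h2bb for H2B, Hist1h3a, Hist1h3b, Hist1h3i, Hist2h3b and Hist2h3c2 for H3, and Hist1h4d for H4. The same 14 were also among the 38 that rose in G2/M-leaning cells. A minority of the S-leaning cells held most of this RNA. In the 38 of 126 that were also above the mean G2/M score, Hist2h3b averaged 178 TPM and Hist1h2ao 987 TPM over cells. In the other 88 these were 3.76 and 16.9 TPM, near the 2.48 and 9.23 TPM of the low cells. Of the 16 calls, 5 held under all 17 alternatives, the interquartile range among them, those of Hist1h1b, Hist1h2ab, Hist1h2ao, Hist2h3b and Hist2h3c2. Hist1h1b, Hist1h2ab and Hist2h3c2 were under 1 TPM in low cells and passed the filter through the other classes. Between S-leaning and G2/M-leaning cells, 30 members were lower in the S-leaning cells and none was higher, against 2.46% of all genes that were lower. The members tested here include the 27 under 1 TPM in low cells. This comparison was not split by that level, so the share of all genes is not a matched one. This count moved with the settings. It was 8 in the interquartile range of gene number, 12 with no filter on low values, 15 with a pseudocount of 0.1 and 19 without either control set, and Hist1h1e, Hist1h2af and Hist2h3c2 kept the call in all 17 alternatives.

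**Figure D3:**
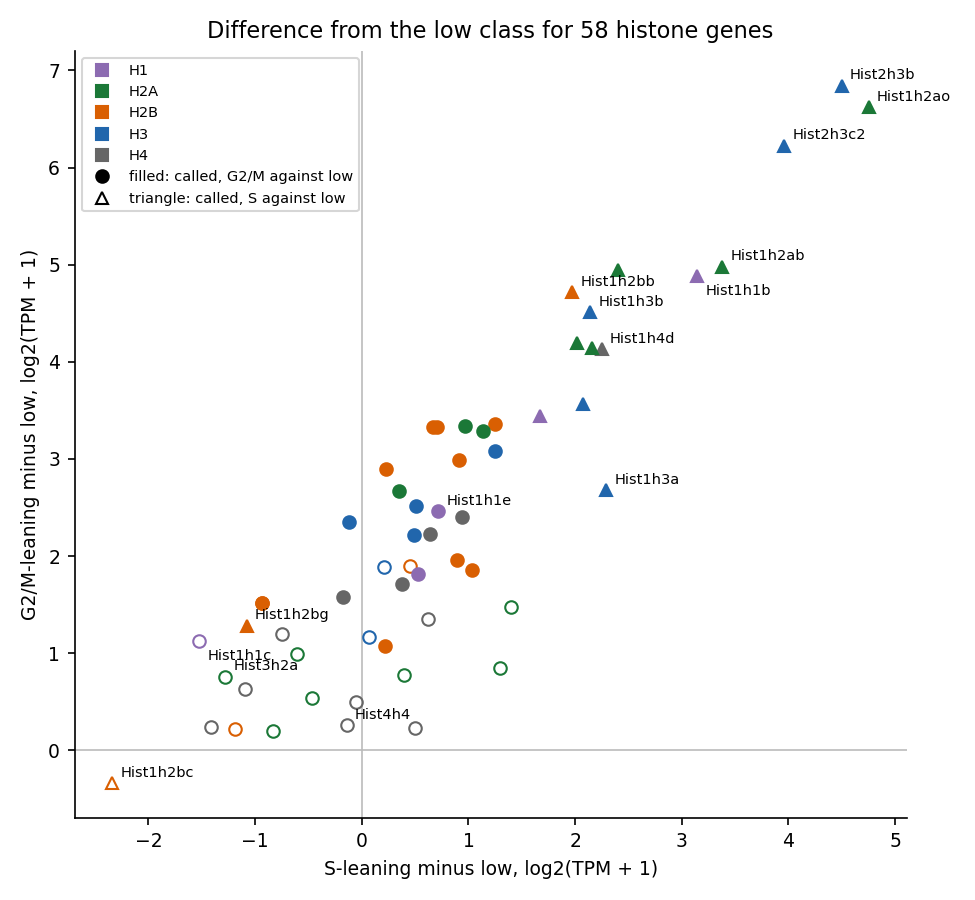
Log2 difference from low cells of the 58 tested members, S-leaning on the x axis and G2/M-leaning on the y axis, coloured by histone type. Filled symbols are called between G2/M-leaning and low cells, triangles between S-leaning and low cells. Hist2h3b and Hist1h2ao lie at the upper right, and Hist1h2bc lies far to the left at −2.34 and −0.34.

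Between G2/M-leaning and low cells the largest log2 difference among the core histone members was that of Hist2h3b, which encodes H3. It averaged 6.47, 1.42, 0.861 and 0 TPM in the low cells of the 4 sets, 75.7, 44.2, 74.5 and 32.6 TPM in the S-leaning cells, and 406, 241, 210 and 282 TPM in the G2/M-leaning cells. The 3 classes did not overlap in any pair of sets. The log2 difference from low cells was 4.50 ± 0.33 (SE) for S-leaning cells (limma adjusted p = 1.3e-06) and 6.84 ± 0.33 for G2/M-leaning cells (limma adjusted p = 8.1e-09). Its near-copy Hist2h3c2, which was under 1 TPM in low cells and passed the filter through the other classes, differed by 3.96 ± 0.26 and 6.23 ± 0.26. Across the 367 cells the 2 genes had a Spearman correlation of 0.88. They share a library and nearly all of their coding sequence, and how far shared reads enter this value was not tested. Another H3 gene, Hist1h3b, averaged 0.23 to 1.86 TPM in low and 28.5 to 61.3 TPM in G2/M-leaning cells. Hist1h3a was below 1 TPM in all 145 low cells, which allows a share of cells at that level of up to 2.07% for the counting of cells alone, and was present in 17 of 126 S-leaning (13.5%) and 23 of 96 G2/M-leaning cells (24%).

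Hist1h2ao gave most of the H2A signal. It averaged 6.16, 12.5, 15.1 and 4.48 TPM in low cells, 132, 217, 378 and 409 TPM in S-leaning cells, and 592, 1038, 941 and 1391 TPM in G2/M-leaning cells. Within every set the order was the same, and it was detected in 20.0% of low (13.8 to 27.4), 48.4% of S-leaning (39.4 to 57.5) and 90.6% of G2/M-leaning cells (82.9 to 95.6). The log2 difference from low cells was 4.75 ± 0.29 for S-leaning (limma adjusted p = 4.3e-07) and 6.62 ± 0.29 for G2/M-leaning cells (limma adjusted p = 4.5e-09). Its copy Hist1h2ap rose by 4.20 ± 0.52 in G2/M-leaning cells. Summed over both, the means were 15.1, 309 and 1117 TPM in the 3 classes. Hist1h2ab, Hist1h2af and Hist1h2ak, which have lower levels, rose in G2/M-leaning cells by 4.98, 4.95 and 4.14 on the log2 scale. Among H2B genes Hist1h2bb showed the same form, with 0 to 0.97 TPM in low, 1.72 to 6.59 in S-leaning and 17.9 to 51.5 TPM in G2/M-leaning cells. Hist1h2ab, Hist1h2af, Hist1h2ak and Hist1h2bb were under 1 TPM in low cells and passed the filter through the other classes. Of the 411 genes that passed in this way 28.5% rose, so these rises are no independent support.

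For H4, Hist1h4d averaged 6.72, 3.20, 4.88 and 0 TPM in low, 23.5, 14.9, 13.7 and 16.1 TPM in S-leaning, and 57.7, 68.1, 49.8 and 85.4 TPM in G2/M-leaning cells. Every set rose from class to class, with a log2 difference from low of 2.25 ± 0.45 for S-leaning (limma adjusted p = 0.0073) and 4.13 ± 0.45 for G2/M-leaning cells (limma adjusted p = 2.5e-05). Hist4h4, the single gene of the Hist4 cluster, was present in more cells than any other H4 member but at 2.85 TPM on average. Its G2/M-leaning minus low difference was 0.26 ± 0.35 (limma adjusted p = 0.71), and its share of cells was 55.2%, 61.9% and 70.8% in the 3 classes. Its transcript model has a 3′ untranslated region of 2515 bases, 2445 of them past the stem-loop.

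Of the linker histone genes, Hist1h1b was near 0 in low cells, Hist1h1e was present in every class, and Hist1h1c was lowest in S-leaning cells. Hist1h1b averaged 0 to 0.84 TPM in low, 7.20 to 13.7 in S-leaning and 21.9 to 73.8 TPM in G2/M-leaning cells, with a G2/M-leaning minus low difference of 4.88 ± 0.31 (limma adjusted p = 1.2e-07). Hist1h1b passed the filter only through the other classes, as did 411 genes of which 28.5% rose, so its call is no independent support. Hist1h1e was detected in 77.9% of low cells. It averaged 37.6, 16.2, 22.9 and 9.97 TPM there, 65.7, 18.7, 42.9 and 20.8 TPM in S-leaning cells and 210, 119, 101 and 61.0 TPM in G2/M-leaning cells. Control 1 was the highest set in each class, and the G2/M-leaning means exceeded the low means in all 4 sets by a mean log2 difference of 2.46 ± 0.21 (limma adjusted p = 1.9e-06). Hist1h1c averaged 4.39, 20.6, 19.1 and 15.2 TPM in low, 3.6, 5.22, 1.95 and 5.54 TPM in S-leaning, and 51.4, 28.7, 28.2 and 17.7 TPM in G2/M-leaning cells. It was lower in S-leaning than in G2/M-leaning cells by limma (log2 −2.65 ± 0.45, adjusted p = 0.0033), and its difference between S-leaning and low cells was −1.53 ± 0.45 (adjusted p = 0.061).

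Hist1h2bc, an H2B gene at chr13:23684199-23692908 with a spliced model and a 3′ untranslated region of 742 bases, was lowest in S-leaning cells. It averaged 87.8, 144, 368 and 250 TPM in low cells, 25.8, 23.4, 51.0 and 52.6 TPM in S-leaning cells, and 208, 151, 146 and 98.6 TPM in G2/M-leaning cells. The S-leaning means lay below all low and all G2/M-leaning means. The log2 difference was −2.34 ± 0.33 between S-leaning and low (limma adjusted p = 0.00054) and −2.0 ± 0.33 between S-leaning and G2/M-leaning cells (limma adjusted p = 0.0029), while that between G2/M-leaning and low was −0.34 ± 0.33 (adjusted p = 0.61). It was detected in 64.8% of low, 41.3% of S-leaning and 77.1% of G2/M-leaning cells. Of 17 alternatives, the call against low cells was lost in 1, when cells were restricted to the interquartile range of gene number (difference −2.36, limma adjusted p = 0.0503). Hist1h2bg, the other member that fell, averaged 4.19 to 13.8 TPM in low and 2.75 to 4.23 TPM in S-leaning cells (log2 −1.08 ± 0.29, limma adjusted p = 0.039). That call was lost without control 1, without control 2 and without HFD 1, and the difference was 0.07 when logs were averaged over cells.

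In the low cells of HFD 1, markers of secretory cells moved with part of the Hist1h2bc signal. The 5 Paneth markers summed to 40, 36.4, 9963 and 158 TPM in the low cells of control 1, control 2, HFD 1 and HFD 2, and the 5 goblet markers to 91.0, 89.4, 1899 and 43.6 TPM. In G2/M-leaning cells the sums were 145, 13.5, 70.7 and 1102 TPM for Paneth and 1655, 15.4, 136 and 1999 TPM for goblet markers. Without the 26 cells in which these markers reached 1000 TPM, Hist1h2bc averaged 92.0, 147, 282 and 248 TPM in low cells, with HFD 1 the set that moved most. Over all classes the other cells averaged 107, 118, 141 and 141 TPM of it in the 4 sets. The 26 cells themselves, 4, 2, 11 and 9 per set, averaged 30.8, 0, 392 and 76.7 TPM, higher in HFD 1 only. The S-leaning minus low difference of Hist1h2bc without these cells was −2.22 (limma adjusted p = 0.00014), and that of Hist1h2bg was −0.46 (adjusted p = 0.675). Leukocyte markers summed to between 0.336 and 2.84 TPM and stromal markers to between 0 and 0.41 TPM per set.

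**Figure D4:**
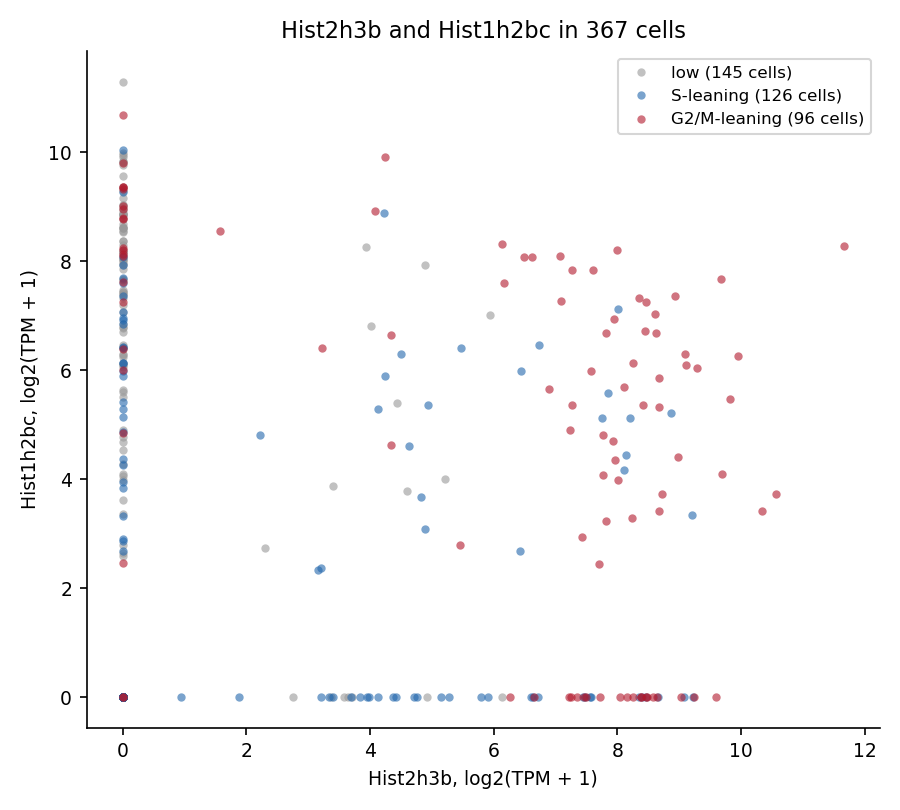
Hist2h3b on the x axis and Hist1h2bc on the y axis in the 367 cells, as log2(TPM + 1), coloured by class. Low cells line the y axis, where Hist1h2bc is present without Hist2h3b, and 46 of the 70 cells with at least 10 TPM of both genes are G2/M-leaning.

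Hist2h3b and Hist1h2bc were found together most often in G2/M-leaning cells. At a level of at least 10 TPM, 7 of 145 low cells held both Hist2h3b and Hist1h2bc, 5 held Hist2h3b alone, 82 Hist1h2bc alone and 51 neither. Among the 126 S-leaning cells these numbers were 17, 29, 26 and 54. Among the 96 G2/M-leaning cells they were 46, 27, 20 and 3, so nearly all cells of that class held at least 1 of the 2 genes.

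Since a cell can score high for both phases, the cells were also divided by each score separately, a division chosen after the values above were seen. The 88 cells above the mean for S but not for G2/M held little histone RNA: their sums were 151, 120, 170 and 163 TPM in the 4 sets (151 ± 22.3), below the 372 ± 130 TPM of the 145 cells above neither. The 87 cells above both held 2973, 2726, 2278 and 2364 TPM (2585 ± 323). The 47 cells above the mean for G2/M alone held 1715, 2133, 1508 and 3048 TPM (2101 ± 683). Every set in the last 2 groups lay above every set in the first 2. Hist2h3b averaged 4.05 TPM in cells above for S alone, 2.19 in cells above neither, 303 in cells above both and 220 in cells above for G2/M alone, and Hist1h2ao 16.2, 9.56, 1131 and 715 TPM. Hist1h2bc followed the S score, with 47.7 ± 26.9 and 40.4 ± 11.3 TPM where S was above and 212 ± 123 and 250 ± 57.0 TPM where it was not. Median gene numbers were 6659, 5870, 7161 and 7071 in the same order of groups as for Hist2h3b. Across the 367 cells the Spearman correlation with gene number was 0.60 for Hist2h3b, 0.52 for Hist1h2ao and −0.19 for Hist1h2bc. The part of gene number in these differences was not tested.

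**Figure D5:**
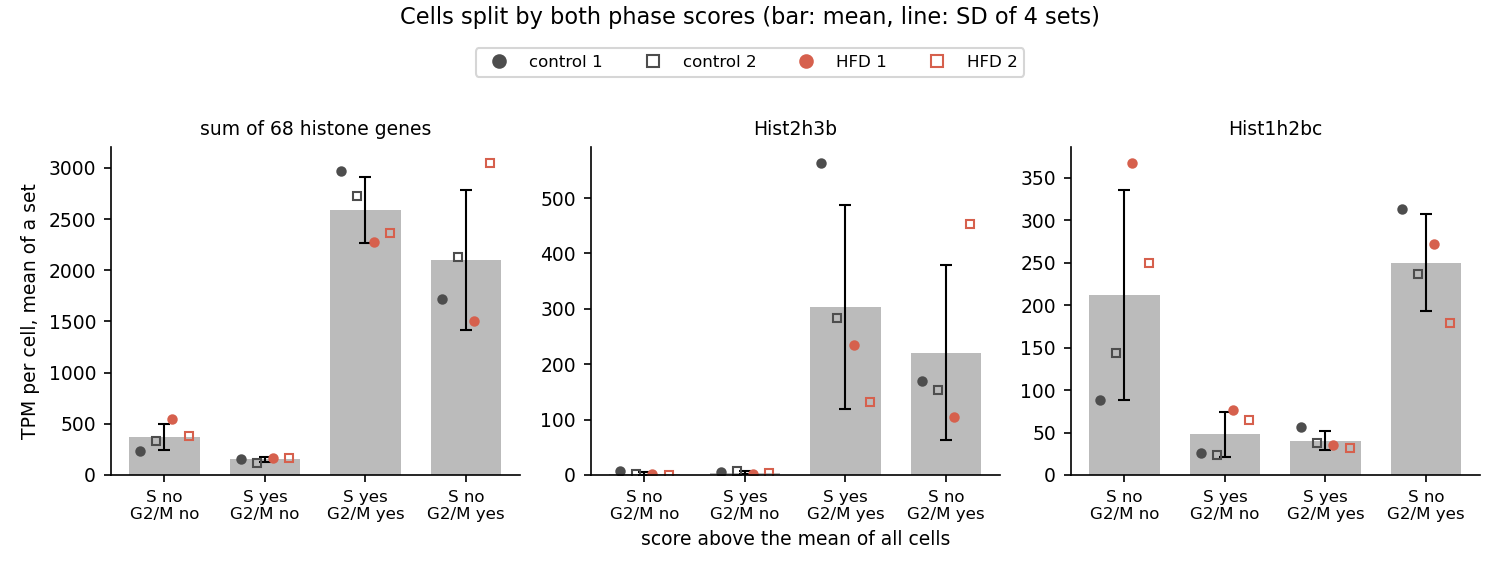
Summed histone level, Hist2h3b and Hist1h2bc (TPM) in the 4 groups of cells formed by the S and G2/M scores being above their means or not. Bars are means of 4 sets, lines their SD and points the sets. The sum and Hist2h3b are high where G2/M is above, and Hist1h2bc is low where S is above.

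Other genes of histone biology were examined in lists that share no gene with the phase markers. Slbp, the gene for the stem-loop binding protein, averaged 39.1, 51.2, 59.1 and 73.9 TPM in low, 113, 168, 257 and 219 TPM in S-leaning, and 59.1, 52.9, 86.5 and 121 TPM in G2/M-leaning cells. It rose in S-leaning cells over low cells (log2 1.72 ± 0.16, limma adjusted p = 1.1e-05) and was higher there than in G2/M-leaning cells (1.25 ± 0.16, limma adjusted p = 0.00029). Its peak class therefore differed from that of the histone sum. Of 22 genes for histone RNA transcription and processing, 4 rose in S-leaning cells over low (5.53% of all genes did): Slbp, Ccne1 and Cdk2, which form the cyclin E kinase, and the cleavage factor gene Cpsf1. In G2/M-leaning cells 1 of the 22 rose, Srrt, a share below the 7.81% of all genes. Npat, the coactivator of histone gene transcription, and Casp8ap2 were not called in S-leaning cells (0.64 ± 0.35, limma adjusted p = 0.34, and 1.10 ± 0.31, adjusted p = 0.054).

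Of 22 histone chaperone and assembly genes, 11 rose in S-leaning cells and 8 in G2/M-leaning cells over low cells, against 5.53% and 7.81% of all genes, and none fell. Asf1b, an H3-H4 chaperone, averaged 0 to 4.69 TPM in low, 42.8 to 74.7 in S-leaning and 41.2 to 76.5 TPM in G2/M-leaning cells. Chaf1a and Chaf1b, subunits of chromatin assembly factor CAF-1, rose in S-leaning cells by 2.86 ± 0.23 and 2.59 ± 0.28 on the log2 scale, and Nasp, which guards soluble H3-H4, by 1.29 ± 0.18. Nasp, Chaf1a, Chaf1b and Tonsl were higher in S-leaning than in G2/M-leaning cells, and Anp32e was lower. Histone genes outside the clusters include the variants H2A.Z and H3.3. Of 10 tested, 7 rose in G2/M-leaning cells, among them H2afx (3.59 ± 0.22), Cenpa (3.65 ± 0.29), H2afz (1.81 ± 0.09), H1f0 (1.29 ± 0.17) and H3f3b (0.66 ± 0.07), and 3 rose in S-leaning cells, H2afx, H2afy and H2afz, against the same shares of all genes. H3f3a, at 593 to 1084 TPM in the 12 means, was not called in either comparison. No gene of the 3 lists was called between diets, where 0.506% of 11667 genes were. The smallest p in the lists was that of Slbp, higher in HFD (log2 1.02 ± 0.25, limma adjusted p = 0.061).

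Members of each annotated form of 3′ end were among those that rose in G2/M-leaning cells. The counts that follow are over members with at least 1 TPM in low cells, and 7.05% of all genes at that level rose. Of members whose model ended less than 50 bases past the stem-loop 4 of 7 rose, and 9 of 17 did whose model ran at least 50 bases past it. Of models that stopped near the stop codon 1 of 3 rose, that of Hist2h3b. Among the 4 longer H2B models without the element Hist2h2be rose, as did Hist1h2bq and Hist1h2br, whose identical values are 1 result, and Hist1h2bc was not called. An annotated poly(A) signal, AATAAA or the common variant ATTAAA in the last 40 bases, was present in 17 members. Of the 12 of these with at least 1 TPM in low cells, 5 rose, Hist1h2bq and Hist1h2br both among them. Of 19 without a signal 12 rose, a difference that was not tested. In low cells the 4 longer H2B models without the element summed to 223 TPM, nearly all of it Hist1h2bc.

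Between diets, the summed histone level did not differ beyond the spread of the sets. The control sets held 941 and 1061 TPM and the HFD sets 1123 and 1021 TPM, a difference of 71.5 TPM against a pooled SD of 78.9. By limma, 0 of 57 members tested were called (0.506% of 11667 genes were), 8 had an unadjusted p under 0.05 (14.0%, against 11.1% of all genes), and the median log2 difference was −0.22 against 0.13 for all genes. The smallest p was that of Hist1h2bb, at 13.9 and 16.8 TPM in control and 11.1 and 4.43 TPM in HFD sets (log2 −1.0 ± 0.36, limma adjusted p = 0.301). With a set left out, 1 member was called without control 1 (Hist1h2ap), and 1 without control 2 and without HFD 1 (Hist1h1e in both). The shares of all genes called in these fits are not given, so the calls cannot be set against them. The histone types differed in sign: H2A summed to 313 and 537 TPM in control against 553 and 579 in HFD sets, H3 to 232 and 168 against 175 and 143, and H1 to 144 and 84.7 against 92.8 and 51.5. For H1 and H3 the diets overlapped, and for H2A both HFD sets lay above both control sets. Beside this, the 45S pre-ribosomal RNA row, Rn45s, held 39.1%, 24.6%, 26.9% and 18.6% of all TPM in control 1, control 2, HFD 1 and HFD 2. With that row left out and each cell rescaled, the median of all genes between diets moved by −0.173 on the log2 scale. The summed level was then 1543 and 1415 TPM in control and 1542 and 1243 TPM in HFD sets, a reversed order of the diet means, and the H2A sums overlapped, at 514 and 714 against 756 and 701 TPM.

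Because the share of S-leaning cells was 26.9% and 25.3% in control and 42.9% and 42.4% in HFD sets, diets were also compared within each class. None of the 32 members tested in low cells was called (0.0346% of all genes were), none of 50 in S-leaning cells (0.0432%) and none of 62 in G2/M-leaning cells (0.0342%). At an unadjusted p under 0.05 there were 1, 7 and 11 members (3.125%, 14.0% and 17.7%, against 6.48%, 8.59% and 7.09% of all genes). In low cells the smallest p was that of Hist1h2bc (log2 1.42 ± 0.35, limma adjusted p = 0.51), whose 2 HFD sets lay above both control sets. In S-leaning cells it was that of Hist1h2ao (1.21 ± 0.30, limma adjusted p = 0.36), again higher in both HFD sets, and Hist1h2bc differed by 1.05 ± 0.31 (adjusted p = 0.41). H2A as a whole summed to 194 and 272 TPM in the S-leaning cells of control sets and 498 and 500 TPM in those of HFD sets, a difference of 266 TPM against a pooled SD of 39.2. Without Rn45s these were 319 and 369 against 679 and 603 TPM. Other values moved with this. The mean G2/M score of the S-leaning cells was 2.41 and 2.24 in control and 2.75 and 2.68 in HFD sets, and 6 of 25 and 6 of 23 of them were above its mean in control, 15 of 39 and 11 of 39 in HFD sets. Among all cells above both scores the diets overlapped for H2A, at 1149 and 1661 TPM in control and 1393 and 1659 TPM in HFD sets. The 5 enterocyte markers summed to 188 and 288 TPM in the S-leaning cells of control and 812 and 795 TPM in those of HFD sets. The part of these in the H2A difference was not tested. In G2/M-leaning cells the smallest p was that of Hist1h4j (−2.0 ± 0.62, limma adjusted p = 0.68). The S-leaning minus low difference itself was compared between diets for 46 members, of which 0 were called (0% of all genes were) and 3 had an unadjusted p under 0.05. The smallest of these belonged to Hist1h2ao (1.28 ± 0.50, limma adjusted p = 0.94).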

How the data were processed

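Single Lgr5-positive cells of mouse small intestine were sequenced by Smart-seq2, per the labels' protocols. The deposited values are TPM per gene and cell, and the submitters' processing notes name Bowtie2, RSEM and mm10. The authors' filters and tool versions were not given in the sources used here. Cells with at least 2000 genes above 0 were kept (367 of 375). No doublet caller was run on the wells.

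Means over cells were taken per set, or per set and phase class, and log2(mean TPM + 1) was fitted with limma 3.58.1 with a mean-variance trend in R 4.3.3, after genes with means under 1 TPM were dropped. Fold changes are on that scale, which understates low genes. Diets were compared over 4 sets without a block, and classes over 12 means with set as a block. Tests were two-sided, with Benjamini-Hochberg adjustment over all genes tested and a threshold of 0.05. The fits were tested on simulated data. Sums and counts over members carry no test.

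Named genes were the 12 highest members, the highest of each histone type, every called member, the smallest p where none was called, and fixed histone-related genes. The members and lists were chosen with earlier results of these data known. Scripts used Python 3.11.15, pandas 2.3.3, numpy 2.4.6 and scipy 1.17.1.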

Additional observations from a re-analysis of the deposited data

Results flagged for a closer look

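In 54 groups of 4 values, the per-set phase differences of the 12 highest members and of the sums, the most extreme set was compared with the rest by Dixon's ratio at its 95% critical value, and 2 exceeded it. Chance flags about 1 in 20 such groups.

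The S-leaning minus low difference of Hist1h2ap, an H2A gene, was 2.93 on the log2 scale in HFD 2 and between 1.64 and 1.78 in the other 3 sets. Hist1h2ap shares its coding sequence with Hist1h2ao, and the division of reads between them was not tested.

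The G2/M-leaning minus low difference of Hist1h1c, an H1 gene, was 3.28 in control 1 and between 0.21 and 0.54 in the other 3 sets. Control 1 had both the lowest level of Hist1h1c in low cells, at 4.39 TPM, and the highest in G2/M-leaning cells, at 51.4 TPM.

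Between G2/M-leaning and low cells, the log2 difference of the H2B sum was 1.90 and 0.99 in control 1 and 2 and −0.46 and −0.39 in HFD 1 and 2, so the diets moved in opposite directions. Its leading gene, Hist1h2bc, differed by 1.24 in control 1, by 0.0726 in control 2 and by −1.33 in each HFD set. The difference between diets was not tested. Without the 26 cells with Paneth or goblet markers, Hist1h2bc averaged 92.0 and 147 TPM in the low cells of the control sets and 282 and 248 TPM in those of the HFD sets, and 221, 151, 152 and 120 TPM in G2/M-leaning cells in the order control 1, control 2, HFD 1 and HFD 2.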

How the results depend on the processing

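The calls in G2/M-leaning over low cells (38 members) were 24, of 29 tested, with a filter of 5 TPM, 17 in the interquartile range of gene number and 29 to 35 with a set left out. Those between S-leaning and low cells (16) were 5 in that range and 13 to 14 with a set left out. Those between S-leaning and G2/M-leaning cells (30) were 15 with a pseudocount of 0.1, 12 with no filter, 18 without a trend, 8 in the interquartile range and 19 to 24 with a set left out. Each comparison includes members under 1 TPM in low cells, and no share of all genes stands beside these counts.

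Between diets no member was called, and 0 to 1 with a set left out: Hist1h2ap without control 1, Hist1h1e without control 2 or HFD 1. With the set number as a replicate block, 3 members were called (Hist1h2ao higher, Hist1h1e and Hist1h2ap lower, among 5.44% of all genes), and 1 in low (Hist1h2bc), 2 in S-leaning (Hist1h2ao, Hist1h2bc) and 1 in G2/M-leaning cells (Hist1h2ap). The labels do not say that numbers pair sets, and with 2 pairs the deviations of same-numbered sets correlated at 0.23 over 11667 genes. With logs averaged over cells, 1 was called in low (Hist1h2bc) and 1 in G2/M-leaning cells (Hist1h2ap). For the calls with a set left out and those within classes, the shares of all genes are not given.

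The summed diet difference (log2 0.10) was −0.0939 without Rn45s, −0.20 in the interquartile range and −0.16 without Hist1h2ao and Hist1h2ap, and 0.01 to 0.19 with a set left out. The summed S-leaning minus low difference (0.83) was 0.43 in the interquartile range and reversed to −0.0434 without those 2 genes, and the G2/M-leaning one (2.83) was 2.04 without them. Members per cell (12.1) were 10.7 in the interquartile range and 8.91 at 10 TPM. Single genes that changed sign were Hist1h2bg between S-leaning and low cells (0.068) and Hist1h2bc between G2/M-leaning and low cells (0.0636) with logs averaged over cells, Hist1h2bq and Hist1h2br in the latter (−0.0165) with the phase cut at 0.5 SD, and Hist1h4j between diets in G2/M-leaning cells (0.45) in the interquartile range. Among the other values of single genes 1342 kept direction and side of the threshold, 230 lost a call and 14 gained one. The causes of these changes were not tested. The removal of the 2 H2A genes, of the cells with secretory markers and the split by both scores were chosen after the data were seen. With TPM alone, read depth is unknown, so absence in a cell cannot be told from shallow sequencing.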
